A study of Homo sapiens with 12 samples.

Results

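The 10 genes described here encode the enzymes and regulators that make, convert and break down polyamines, together with the enzyme that makes S-adenosylmethionine (SAM), a substrate of polyamine synthesis. They are ODC1, OAZ1, OAZ2, AZIN1, MAT2A, AMD1, SRM, SMS, SAT1 and SMOX. Every probe was taken whose platform symbol, or an older alias such as SAT for SAT1 or OAZIN for AZIN1, was one of these genes. The 10 genes lay on 11 probes, of 14486 named genes on 17593 probes, and OAZ2 alone had more than 1 probe. The list was chosen from measured values of these arrays, because it was drawn up when SAT1 was known to be among the largest increases with metformin. The values of the 10 genes are therefore given as a description, with no p-value.

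RNA was prepared from LNCaP, a human prostate cancer cell line with androgen receptor, and every group came from this 1 line. Cells were left untreated as control, or received 5 mM metformin, a biguanide that inhibits complex I of the respiratory chain, or 5 mM AICAR, which once phosphorylated in the cell mimics AMP and switches on the energy sensor AMPK. The labels give 24 h of treatment, as does the text of the study for metformin, whereas a legend of the study gives a shorter time. The 2 replicate numbers of the labels were taken here as 2 cultures, each with 3 extracts shared by its comparisons. In each culture the 3 extracts were compared pairwise on two-colour arrays. Each pair was hybridised again with the dyes exchanged, which gives 12 arrays and 4 per comparison.

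The value of a probe on an array is a log ratio between 2 extracts, taken as the log2 ratio of Cy5 to Cy3 and turned so that metformin over control, AICAR over control and metformin over AICAR are reported. Neither the log base nor the direction of the ratio is stated in the sources used here. The direction is likely the one used here, from the labelled dyes and the convention of the limma software that made the values. Under this reading the energy stress genes DDIT4 and SESN2 had log2 ratios of 3.28 and 2.48 for metformin over control. A fitted log2 ratio is given with its moderated standard error (SE) over 2 cultures, and the small number of arrays limits the precision of each one. The variance of a gene was pooled over the treatments, so its SE is the same in every comparison by construction. A transcript was called when its adjusted p was below 0.05 and its log2 ratio lay beyond 0.7 in either direction.

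The array medians lay between −0.042 and 0.051, and all 6 extracts were labelled with an RNA integrity number of 9. The 2 arrays of a dye-swap pair had correlations of −0.42 to −0.723 over all probes as deposited. The slide numbers of 3 arrays, all of culture 1, stood apart from those of the other 9. Of 8 markers of LNCaP cells, 6 were measured. With metformin over control the fitted ratios of all 6 lay below 0, from −1.04 to −0.40, and KLK3 at −0.72 and TMPRSS2 at −1.04 were called lower. The cultures of FOLH1 had opposite signs, at 0.47 in culture 1 and −1.30 in culture 2, around a fitted −0.42 (SE 0.41). With AICAR over control 3 of the 6 lay above 0, over a range of −1.90 to 0.36, and TMPRSS2 at −1.90 was called lower. Between metformin and AICAR 1 of the 6 lay above 0, TMPRSS2 at 0.86, which was called higher, and ACP3 at −0.78 was called lower. The shares of all transcripts called are given below. The part of these markers in the results below was not tested. Ratios between extracts of 1 line show such changes but not whether a marker was present.

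Polyamines are small positively charged molecules that bind RNA and DNA and that growing cells need, and the prostate makes them in unusual amounts. Ornithine decarboxylase (ODC1) makes putrescine from ornithine, and SAM decarboxylase (AMD1) makes the aminopropyl donor from SAM. Spermidine synthase (SRM) and spermine synthase (SMS) add aminopropyl groups to give spermidine and spermine, while spermidine/spermine acetyltransferase (SAT1) and spermine oxidase (SMOX) lead back down. Several of these enzymes are controlled at the level of translation and protein decay as well as by mRNA, which alone was measured here.

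SAT1 mRNA was higher with both agents, by 10.7-fold with metformin and by 1.69-fold with AICAR. MAT2A mRNA was lower by 6.01-fold with AICAR, while its ratio for metformin over control was close to 0. SRM mRNA was lower by 2.09-fold with metformin. These 3 genes carried all 7 called ratios of the 30 that the 10 genes have in the 3 comparisons, and AMD1, SMS, AZIN1 and SMOX had sizeable ratios that were not called. Of all transcripts, 2.73% were called for metformin over control, 3.35% for AICAR over control and 6.6% for metformin over AICAR. The comparisons share extracts, so the 3 ratios of a gene are not independent.

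**Figure D1:**
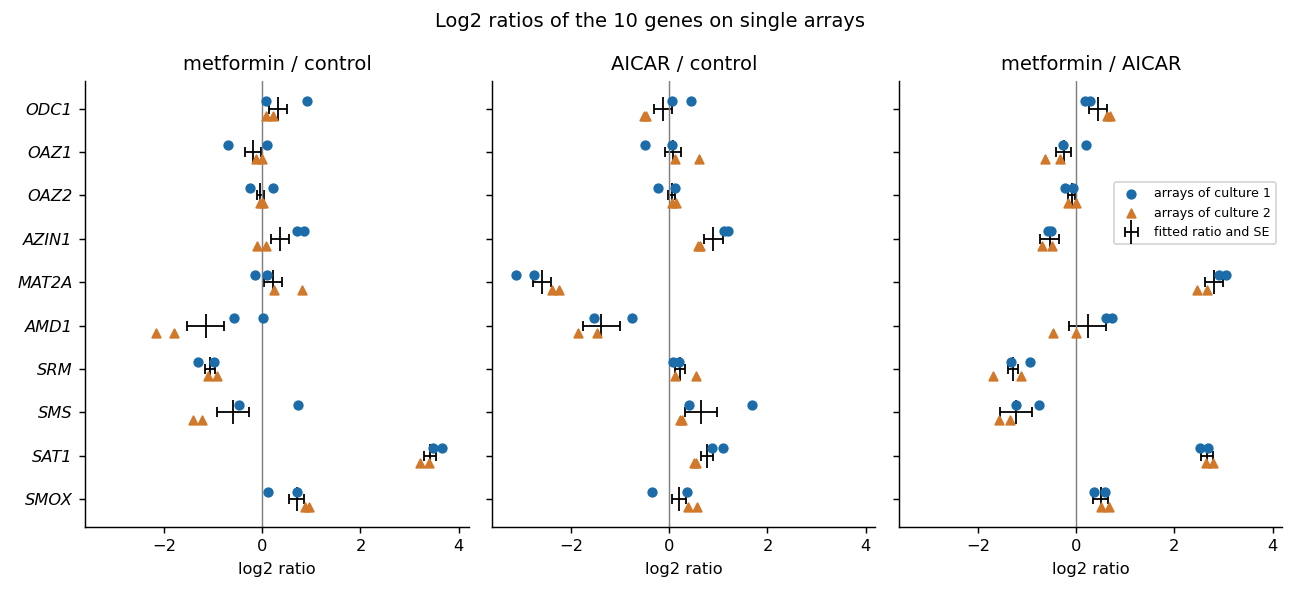
Log2 ratios of the 10 genes (x axis) on the 4 arrays of each comparison, as circles for culture 1 and triangles for culture 2, with the fitted ratio and its SE as a black cross. SAT1 lies between 3.20 and 3.66 for metformin over control, MAT2A between −3.12 and −2.24 for AICAR over control, and AMD1 and SMS are spread widely between the cultures.

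SAT1 acetylates spermidine and spermine so that they can be oxidised or exported, and is the inducible step of polyamine breakdown. For metformin over control, SAT1 read 3.66 and 3.47 on the 2 arrays of culture 1 and 3.20 and 3.39 on those of culture 2. With AICAR over control the same gene read 0.88 and 1.09 in culture 1 and 0.51 and 0.54 in culture 2. All 4 arrays with AICAR were above 0 and below all 4 arrays with metformin. The fitted log2 ratios were 3.42 (SE 0.12) for metformin and 0.76 (SE 0.12) for AICAR. SAT1 ranked 4 from the highest among the 14486 named genes with metformin and 181 with AICAR. On the arrays that set both agents against each other, SAT1 read 2.69 and 2.52 in culture 1 and 2.64 and 2.78 in culture 2, a fitted 6.33-fold excess with metformin. The call with metformin was not reached when the direct ratios alone were used, at a log2 ratio of 3.43. The AICAR call was lost under 3 alternatives in which the log2 ratio was 0.76 to 0.89, among them the fit without the 3 arrays whose slide numbers stood apart (0.82).

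SMOX oxidises spermine straight back to spermidine, with hydrogen peroxide as a by-product. Its arrays read 0.12 and 0.70 in culture 1 and 0.95 and 0.87 in culture 2 for metformin over control. All 4 lay above 0, and the fitted log2 ratio of 0.70 (SE 0.15) was not called. The AICAR arrays of SMOX against control ran from −0.35 to 0.57 around a fitted 0.20. On the direct arrays of metformin over AICAR they ran from 0.37 to 0.67, with a fitted 0.50. The order of its extract levels was control, AICAR and then metformin, as it was for SAT1, but control and AICAR differed by less than 2 SE.

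MAT2A encodes the catalytic subunit of the methionine adenosyltransferase found in most tissues outside the adult liver, and makes SAM from methionine and ATP. In the comparison of AICAR with control, MAT2A read −2.75 and −3.12 on the arrays of culture 1 and −2.24 and −2.39 on those of culture 2. For metformin over control it read −0.14 and 0.096 in culture 1 and 0.24 and 0.80 in culture 2. The AICAR arrays were thus all far below 0, while the metformin arrays lay on both sides of it. The fitted log2 ratio was −2.59 (SE 0.18) for AICAR, place 4 from the lowest of the named genes, and 0.22 (SE 0.18) for metformin. On the direct arrays of metformin over AICAR, MAT2A read 2.91 and 3.04 in culture 1 and 2.47 and 2.66 in culture 2. The fitted ratio of 2.80 (SE 0.18) was the largest of the 10 genes in that comparison, above that of SAT1 at 2.66, with SEs that overlap. Without the 3 arrays whose slide numbers stood apart, both MAT2A calls were also made.

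AMD1 removes the carboxyl group of SAM and commits it to polyamine synthesis. Its arrays of AICAR over control read −0.77 and −1.52 in culture 1 and −1.47 and −1.85 in culture 2. Those of metformin over control read −0.57 and 0.011 in culture 1 and −2.17 and −1.80 in culture 2. With AICAR the 4 arrays were all below 0, whereas with metformin the gene was clearly below control in culture 2 only. The fitted log2 ratios were −1.39 with AICAR and −1.15 with metformin, each with an SE of 0.37, the widest of the 10 genes, and neither was called. This SE is pooled over the treatments and is not the spread of either ratio alone. The fitted values of cultures 1 and 2 were −1.08 and −1.69 with AICAR, and −0.34 and −1.95 with metformin. Between metformin and AICAR the cultures had opposite signs, with fitted values of 0.74 and −0.26. When the 12 arrays were taken as separate data points, which treats dye-swap partners as independent, both AMD1 ratios against control were called lower. With direct ratios alone, which keeps the cultures as replicates, AMD1 was called lower for AICAR over control, at −1.40. It was not called there for metformin over control, where that setting called no transcript.

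**Figure D2:**
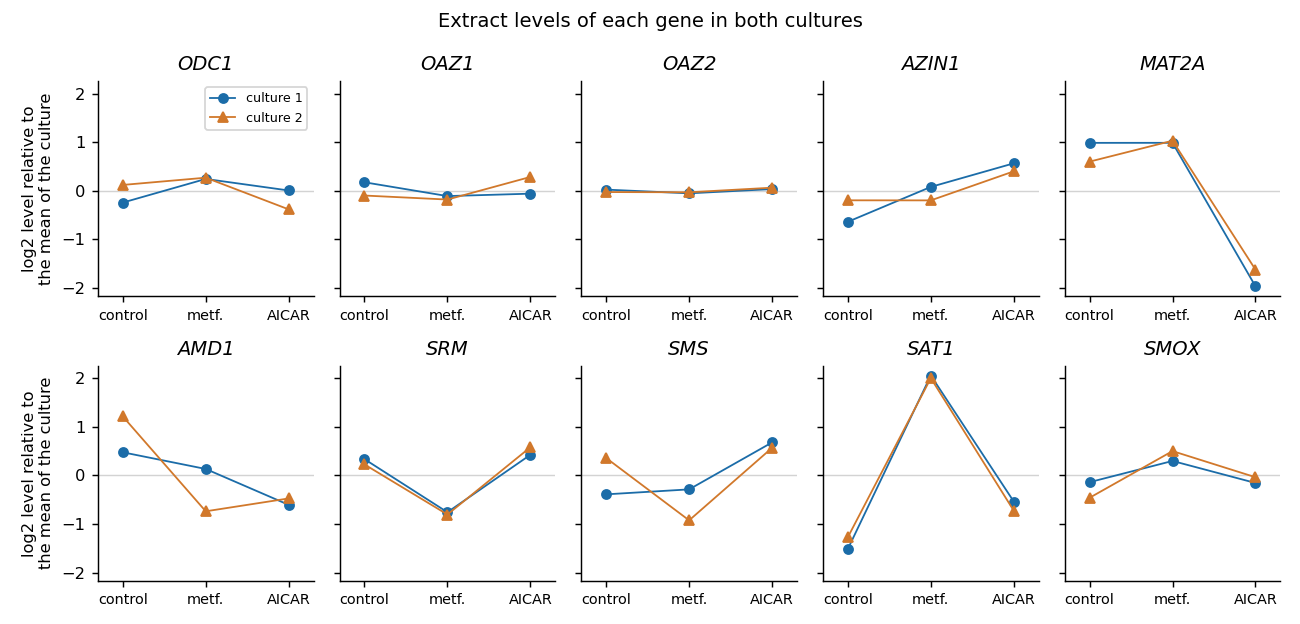
Log2 level of each gene (y axis, relative to the mean of the 3 extracts of a culture) in control, metformin (metf.) and AICAR extracts, with a line per culture. The 2 lines lie close together for SAT1, SRM and MAT2A, but also for genes that were not called, such as OAZ2 and SMOX. They diverge for AMD1 and SMS, where control stood at 0.48 and 1.21 and at −0.39 and 0.36 in cultures 1 and 2.

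SRM transfers an aminopropyl group to putrescine and so makes spermidine. For metformin over control, SRM read −1.31 and −0.98 in culture 1 and −1.11 and −0.91 in culture 2. Against the same control extracts, AICAR gave 0.21 and 0.075 in culture 1 and 0.54 and 0.13 in culture 2. The metformin arrays were all lower than the lowest AICAR array, and the signs were opposite. The fitted log2 ratios were −1.06 (SE 0.095) with metformin, called lower, and 0.22 (SE 0.095) with AICAR, not called. Metformin over AICAR gave −1.33 and −0.93 in culture 1 and −1.69 and −1.13 in culture 2, a fitted −1.28, or a 2.44-fold lower level with metformin that was also called. The call against control was not reached with direct ratios alone, at −1.08, a setting that called no transcript at all in that comparison.

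SMS makes spermine from spermidine in the next step. Its arrays read 0.73 and −0.48 in culture 1 and −1.22 and −1.41 in culture 2 for metformin over control, so the dye-swap partners of culture 1 had opposite signs. The AICAR arrays against control read 0.40 and 1.69 in culture 1 and 0.21 and 0.27 in culture 2. The array at 1.69 stood apart from the other 3, which lay close together. On the direct arrays, SMS read −0.77 and −1.22 in culture 1 and −1.57 and −1.35 in culture 2 for metformin over AICAR. All 4 arrays were below 0, as for SRM, and the fitted log2 ratio of −1.23 (SE 0.32) was not called. It was called lower with direct ratios alone, at −1.23, and when the 12 arrays were taken as separate data points. The fitted ratios against control were −0.59 with metformin and 0.64 with AICAR, both under 2 SE from 0, and control lay between metformin and AICAR in the mean levels of both SMS and SRM.

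ODC1, the first enzyme of the pathway, showed small ratios. It read 0.90 and 0.071 in culture 1 and 0.068 and 0.22 in culture 2 for metformin over control, a fitted 0.32 (SE 0.18). With AICAR over control the arrays were at 0.063 and 0.44 in culture 1 and at −0.48 and −0.52 in culture 2, so the cultures lay on opposite sides of 0 around a fitted −0.13. Metformin over AICAR gave 4 arrays between 0.19 and 0.68 and a fitted 0.45 (SE 0.18). None of the 3 ratios of ODC1 was called.

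Antizyme binds ODC1 protein, takes it to the proteasome and also restrains polyamine uptake, and OAZ1 and OAZ2 encode its main forms. OAZ1 had fitted log2 ratios of −0.18 with metformin and 0.074 with AICAR against control, and −0.26 for metformin over AICAR, each with an SE of 0.16. Its arrays ran from −0.70 to 0.61 over the 3 comparisons, and 1 metformin array of culture 2 was deposited at exactly 0. OAZ2 was the flattest of the 10 genes, with fitted ratios of −0.041, 0.051 and −0.091 in the same order. That average joins 2 probes that differed in sign. The probe matched by symbol alone gave −0.33, 0.22 and −0.55, and the probe matched by accession gave 0.25, −0.12 and 0.36, so no direction can be given for OAZ2.

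AZIN1 encodes antizyme inhibitor, a relative of ODC1 without enzyme activity that frees ODC1 from antizyme. It read 1.11 and 1.19 in culture 1 and 0.63 and 0.59 in culture 2 for AICAR over control. With metformin it read 0.84 and 0.70 in culture 1 and 0.079 and −0.11 in culture 2. The arrays with AICAR were all above 0, and those with metformin were so in culture 1 alone. The fitted log2 ratios were 0.90 (SE 0.19) with AICAR, not called, and 0.36 (SE 0.19) with metformin. Metformin over AICAR ran from −0.69 to −0.48, with a fitted −0.54. AZIN1 with AICAR was called higher when the 12 arrays were taken as separate data points.

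Counted together, 1 of the 10 genes was called higher (SAT1) and 1 lower (SRM) for metformin over control, where 1.5% of all 24541 transcripts were called higher, 1.23% lower and 2.73% in either direction. For AICAR over control, 1 was called higher (SAT1) and 1 lower (MAT2A), against 0.456% higher, 2.89% lower and 3.35% in either direction. For metformin over AICAR, 2 were called higher (SAT1 and MAT2A) and 1 lower (SRM), against 4.59%, 2.01% and 6.6%. The 24541 transcripts are 14486 named genes and 10055 unnamed features. In a fit of the named genes only, the shares called higher and lower were 1.97% and 1.81% for metformin over control. They were 0.587% and 3.45% for AICAR over control, and 5.6% and 2.69% for metformin over AICAR. Nothing is read from these counts, since the list was made with these comparisons known. The comparisons share extracts and are not independent of each other. The median log2 ratios of the 10 genes were 0.088, 0.14 and 0.073 in the same order, beside −0.00015, 0.040 and −0.034 over all transcripts. The 4 arrays of a comparison had 1 sign for 4, 6 and 8 of the 10 genes. The same count was not made over all transcripts, so nothing is read from it.

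**Figure D3:**
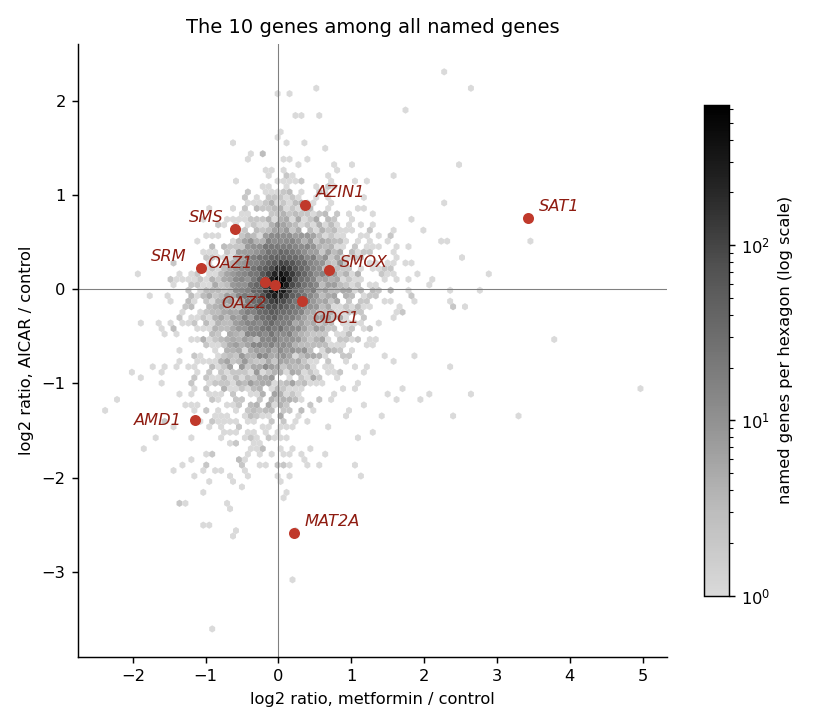
Fitted log2 ratio for metformin over control (x axis) against that for AICAR over control (y axis), with grey hexagons shaded by the number of named genes and the 10 genes in red. SAT1 lies far to the right at 3.42 and MAT2A far down at −2.59, while OAZ1, OAZ2 and ODC1 lie between −0.18 and 0.32 on the x axis; both axes share the control extracts.

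The upstream windows of the 3 called genes are shown because all called ratios were theirs. Each holds the 250 bases before an annotated start of the gene on its own strand, from RefSeq and GRCh38.p14, at chrX:23782923-23783172 (plus strand) for SAT1, chr2:85538918-85539167 (plus strand) for MAT2A and chr1:11060019-11060268 (minus strand) for SRM. Capitals mark the CCAAT box (CCAAT or ATTGG), which NF-Y binds, and the E-box CACGTG, which MYC and MAX bind.
SAT1: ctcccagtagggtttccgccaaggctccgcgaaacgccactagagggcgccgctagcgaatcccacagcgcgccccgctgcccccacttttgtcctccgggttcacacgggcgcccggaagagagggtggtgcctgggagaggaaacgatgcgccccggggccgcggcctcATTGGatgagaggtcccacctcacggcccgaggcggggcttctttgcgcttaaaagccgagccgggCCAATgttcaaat
MAT2A: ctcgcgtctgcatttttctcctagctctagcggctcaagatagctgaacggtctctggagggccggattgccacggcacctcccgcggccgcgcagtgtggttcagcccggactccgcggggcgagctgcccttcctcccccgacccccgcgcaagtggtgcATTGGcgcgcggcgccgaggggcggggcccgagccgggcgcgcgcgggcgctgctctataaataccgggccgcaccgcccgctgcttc
SRM: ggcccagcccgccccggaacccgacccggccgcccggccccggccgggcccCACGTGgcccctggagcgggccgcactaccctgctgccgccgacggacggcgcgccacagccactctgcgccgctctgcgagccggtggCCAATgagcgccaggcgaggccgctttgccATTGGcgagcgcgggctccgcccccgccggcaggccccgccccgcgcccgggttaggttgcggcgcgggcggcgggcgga

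The window of SAT1 held 2 CCAAT boxes, that of MAT2A held 1, and that of SRM held 2 with 1 E-box. In all, 8 of the 10 genes (all but AZIN1 and SMOX) had 11 such windows. Some genes have several, since they have several annotated starts: ODC1 has 2 and AMD1 has 3, of which 2 lie 1 base apart, so the 11 are not separate from one another. Of the 11, 6 held CCAAT on either strand, against 32% of all 35116 windows. The 11 windows had a GC content of 66.4% to 82.4%, beside a median of 58% over all windows. CACGTG was found in 2, that of SRM and 1 of the 2 of ODC1, which lies downstream of the other ODC1 start, against 6.34% of all windows. No window of the 10 genes held the cAMP response element TGACGTCA (1.65% of all windows), the C/EBP-ATF element TGATGNAA (3.14%) or the antioxidant response element TGACNNNGC (10.9%). These motifs do not overlap one another in the windows shown, both strands were searched, and a match or its absence describes the letters only.

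Genes whose 12 array ratios lay closest to those of SAT1 and MAT2A, the 2 genes with the widest range of extract levels, were found by root mean square difference over 14485 named genes. For SAT1 they were S100P (0.504), ASNS (0.632) and MOCOS (0.632), where the median gene differed by 2.57. S100P, a calcium-binding protein, had log2 ratios of 3.45 with metformin and 0.53 with AICAR against control. ASNS, asparagine synthetase, had 2.55 and 0.32, and MOCOS, the molybdenum cofactor sulfurase, had 2.87 and 0.15. For MAT2A the closest were BOLA1 (0.543), FADD (0.549) and TNFRSF1A (0.583), beside a median of 2.27. All 3 were near or above control with metformin, at 0.046, 0.22 and 0.53. With AICAR they were at −2.23 for BOLA1, −3.10 for FADD, the adaptor of death receptors, and −1.85 for TNFRSF1A, a receptor for tumour necrosis factor. Most genes had ratios near 0, so the median differences mainly give the distance of SAT1 and MAT2A from 0 and are no benchmark of likeness. The 12 arrays come from 6 extracts, so this likeness is a description.

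Around these 10 genes, 40 of 49 further genes in 4 lists were measured. These lists were also drawn up with earlier results of these data known. The p-values of their genes are therefore given as a description and are no test of the lists. For metformin over control 2 of the 40 were called higher and 0 lower, while 12 had an unadjusted p below 0.05, as had 17.5% of all transcripts. For AICAR over control limma called 0 of the 40, with 7 at an unadjusted p below 0.05, beside 20.9% of all transcripts, and 0 under each of the other settings run for these genes. For metformin over AICAR 3 were called higher and 1 lower, and 14 had an unadjusted p below 0.05, beside 26.4% of all transcripts. In the fit of named genes only, 11, 7 and 12 of the 40 had an unadjusted p below 0.05 in that order. So had 2966, 3380 and 4343 of the 14486 named genes. The shares of all transcripts called in each comparison are those given above. The median log2 ratios of the 40 genes were 0.058, 0.12 and −0.045 in that order, each within 0.1 of the median of all transcripts.

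Among the genes of polyamine interconversion, regulation and use, 15 of 16 were measured and 1 was called. NQO1, a quinone reductase also known to shield ODC1 from degradation, read 0.53 to 1.38 on the 4 arrays of metformin over control. It rose by a log2 ratio of 0.96 (SE 0.10, limma adjusted p = 0.0201) and was also higher with metformin than with AICAR, by 0.98 (adjusted p = 0.0101). The call against control was not reached with direct ratios alone, at 0.98 (adjusted p = 0.0779). The paralog of SAT1 in this list, SAT2, which was picked after its values were seen, had 0.69 (SE 0.15, adjusted p = 0.0867) for metformin over control. MYC and MAX, the E-box factors, were likewise picked afterwards and had log2 ratios of 0.0072 and 0.092 with metformin.

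The methionine cycle and the use of SAM gave the other called genes, with 14 of 17 genes measured. CTH, which cleaves cystathionine to cysteine, rose by 0.87 (SE 0.14, adjusted p = 0.0484) for metformin over control, but this call was lost under 5 alternatives with adjusted p of 0.052 to 0.146. For metformin over AICAR, CTH was higher by a fitted 0.89 (limma adjusted p = 0.0253). CBS, which makes cystathionine from homocysteine, was higher by 0.86 (adjusted p = 0.0256). GAMT, which uses SAM to make creatine, was lower by a log2 ratio of −0.93 (adjusted p = 0.0438). Without the 3 arrays whose slide numbers stood apart, the calls of CBS and GAMT were lost, with adjusted p of 0.0668 and 0.143. The CBS call was also lost with direct ratios alone (adjusted p = 0.0657), and the CTH call against AICAR with scaled arrays (adjusted p = 0.0505). MAT1A, the adult liver form of the SAM-making enzyme, and MAT2B, the regulatory partner of MAT2A, were picked after their values were seen and had 0.051 and 0.053 for AICAR over control.

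No gene of methylthioadenosine salvage, which recycles the by-product of spermidine and spermine synthesis, was called among the 3 of 5 measured, and 1 had an unadjusted p below 0.05. Ranked by the smallest p of each gene, the first 2 were MTAP, the phosphorylase that opens the route, at −0.25 for metformin over AICAR (adjusted p = 0.174), and APIP at 0.40 for AICAR over control (adjusted p = 0.336). Of 11 genes of polyamine and arginine transport 8 were measured and 0 were called, with up to 3 at an unadjusted p below 0.05 in a comparison, where 17.5% to 26.4% of all transcripts had one. SLC22A3, an organic cation transporter, read −1.69 to −0.58 for metformin over AICAR with a fitted −1.15 (SE 0.26, adjusted p = 0.058). SLC3A2, the heavy chain of several amino acid transporters, read 0.37 to 1.90 with a fitted 1.18 (SE 0.35, adjusted p = 0.108), and the cultures were at 1.90 and 0.46. Both were called when the 12 arrays were taken as separate data points.

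**Figure D4:**
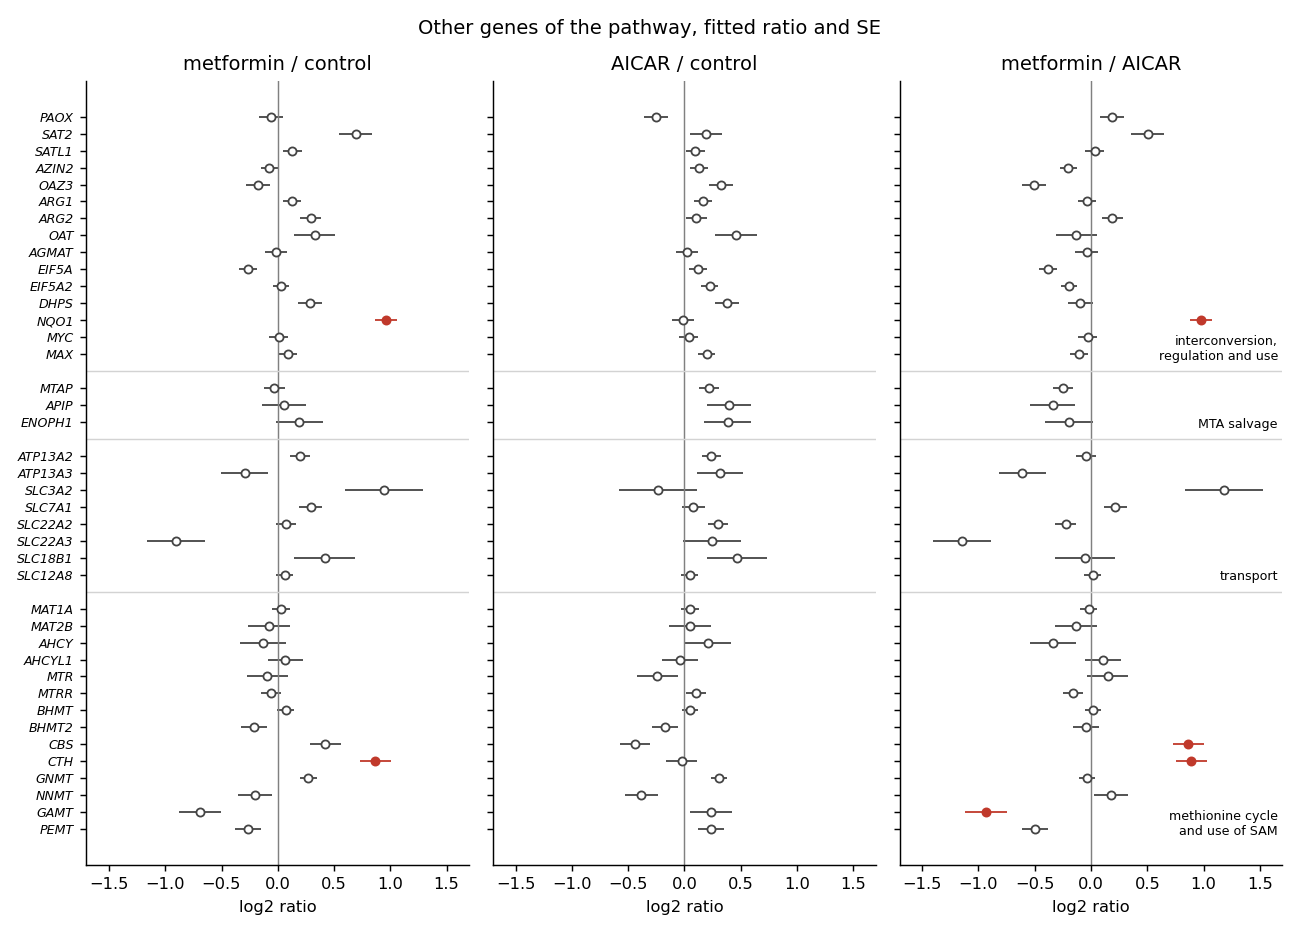
Fitted log2 ratio (x axis) and SE of the 40 further genes of the pathway in the 3 comparisons, grouped by list, with called ratios as filled red points and the rest open. MTA is methylthioadenosine and SAM is S-adenosylmethionine; NQO1, CTH, CBS and GAMT are the called genes, none of them for AICAR over control.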

How the data were processed

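RNA of LNCaP cells was hybridised to 12 two-colour arrays carrying the RNG/MRC collection of human oligonucleotides, with 27648 features each. The deposited log ratios, treated here as log2, had been normalised by the authors in limma, with print-tip loess on each slide and the quantile method across slides. The limma version, the background correction, the log base and the direction of the ratio are not given in the sources used here. Gene names came from the platform annotation, updated through RefSeq. Of 17711 features listed with a symbol, 14603 matched by accession and 2835 by symbol or synonym, 155 kept the listed symbol, and 118 with conflicting names were left unnamed. Probes of a gene were averaged, and all 24541 transcripts, which are 14486 named genes and 10055 unnamed features, were tested.

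Ratios were turned by the labelled dyes. The 2 arrays of each dye swap were averaged, and the resulting 6 ratios were solved by least squares for the levels of the 6 extracts. Treatment was then fitted with the culture as a replicate block in limma 3.58.1 under R 4.3.3 (lmFit and eBayes, 2 residual and 2.88 prior degrees of freedom), with Benjamini-Hochberg adjustment over all transcripts. The fit was run on simulated data to check the sign and the median size of its estimates. The rates of false and missed calls were not part of that check. The pairing comes from the replicate numbers of the labels, which were taken as cultures.

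Alternatives were arrays as separate points, a dye term (also per slide series), direct ratios only, fewer arrays, no ratio threshold, centred or scaled arrays, single probes, robust variances, named genes only and either culture alone.

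The 10 genes and the lists of other genes were chosen with earlier results of these data known. The text names all 10 genes and, of each of the 4 other pathway lists, the called genes or else the 2 with the smallest p. For SAT1 and MAT2A it also names the 3 most similar genes. SAT2, MYC, MAX, MAT1A, MAT2B, DDIT4, SESN2 and the LNCaP markers were named outside this rule, after their values were seen.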

Additional observations from a re-analysis of the deposited data

Results flagged for a closer look

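In 2 cases both arrays of one culture lay on the other side of 0 from both arrays of the other culture, and this difference was not tested. AMD1 for metformin over AICAR averaged 0.68 on the arrays of culture 1 and −0.24 on those of culture 2. The culture 2 arrays read −0.46 and −0.0084, so 1 of them was practically at 0. ODC1 for AICAR over control averaged 0.25 in culture 1 and −0.50 in culture 2. In 1 of 30 groups of 4 arrays a single array lay far from the rest: SMS for AICAR over control read 1.69 on the culture 1 array with control in Cy5, while its dye-swap partner read 0.40. About 1 in 20 such groups, or 1.5 of 30, would be picked out by chance.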

How the results depend on the processing

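With only 2 cultures, leaving out either gave values without a test, and all 7 called ratios of the 10 genes kept their sign in each culture. None of the 7 reversed under any alternative, and 4 of the 7 were called under all of them. The replicate block (the culture) is part of the fit by construction. With no replicate block, where arrays are separate data points, 2 of the 10 genes were called lower for metformin over control, 2 higher and 2 lower for AICAR over control and 2 lower for metformin over AICAR. Of all transcripts, that setting called 1.89% lower for metformin over control and 1.12% higher and 3.95% lower for AICAR over control. It called 2.65% lower for metformin over AICAR. The counts of the 10 genes were the same with a dye term and with a dye term per slide series. The added genes were AMD1, AZIN1 and SMS. With direct ratios only, 0 were called higher and 0 lower for metformin over control, 0 higher and 2 lower for AICAR over control and 2 lower for metformin over AICAR. Those called lower were MAT2A and AMD1 for AICAR over control, and SRM and SMS for metformin over AICAR. That setting called 0 of 24541 transcripts for metformin over control with limma, although 3948 had an unadjusted p below 0.05 and the standard fit called 671. It called 0.603% of all transcripts higher and 3.24% lower for AICAR over control, and 1.89% lower for metformin over AICAR. For AICAR over control, 0 of the 10 genes were called higher without the 3 arrays whose slide numbers stood apart, and 0 with all arrays brought to one median absolute deviation. The shares of all transcripts called higher were 0.244% and 0.277% under these settings, against 0.456% in the standard fit. OAZ1 for AICAR over control was −0.053 without those 3 arrays. The accession-matched probe of OAZ2 alone gave 0.25, −0.12 and 0.36, the reverse of the mean of both probes. The cause of these changes was not tested.

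For the other genes of the pathway the alternatives that refit all transcripts were applied, after the data were seen. For metformin over control the count of genes called higher was 0 with direct ratios only, 4 with a dye term per slide series, and 1 without the 3 arrays, with array medians set to 0, with scaled arrays or with a robust variance prior. The count called lower was 1 with arrays as separate data points or with a dye term and 2 with a dye term per slide series. Between metformin and AICAR the count called higher ran from 2, with direct ratios only, without the 3 arrays or with scaled arrays, to 4 under the 3 fits of separate arrays, against 3. The count called lower was 2 under each of those 3 array fits and 0 without the 3 arrays. Calls over all 24541 transcripts also varied. For metformin over control, 0 were called higher with direct ratios only and 524 with a dye term per slide series, against 368. The other totals called higher were 210 without the 3 arrays, 360 with array medians set to 0, 356 with scaled arrays and 343 with a robust prior. Called lower were 464 with arrays as separate data points, 468 with a dye term and 463 with a dye term per slide series, against 303. For metformin over AICAR, 885 were called higher without the 3 arrays and 1264 with arrays as separate data points, against 1126.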
